A study of Mus musculus with 19 samples.

Results

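The 10 contractile genes of smooth muscle and myofibroblasts described here are Acta2, Actg2, Myh11, Myl9, Tpm2, Cnn1, Tagln, Lmod1, Des and Myocd. They were taken by gene symbol from the 54532 genes of the count table, and all 10 were found and passed the filter on low counts. RNA was sequenced from the whole obstructed kidney of 19 male mice, 8 to 9 weeks old and of C57BL/6J background, 12 days after unilateral ureteral obstruction (UUO), in which the left ureter is tied and cut. WT or CD5L-deficient (CD5L KO) mice were injected into the peritoneum every day with recombinant CD5L (rCD5L, 0.5 mg per mouse) or with PBS. Of the WT mice, 5 received PBS and 5 rCD5L, and of the CD5L KO mice, 4 received PBS and 5 rCD5L. Every group was obstructed, no unobstructed kidney was analysed here, and the labels say no more of the CD5L KO allele than its name. In whole-kidney RNA, fewer cells of a type and less RNA per cell cannot be told apart.

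Smooth muscle shortens when myosin filaments pull on filaments of actin, and tropomyosin, calponin and other actin-bound proteins set how the filaments are built and used. In the kidney these genes are active in vessel walls, in pericytes and in the muscle of the renal pelvis and ureter, and after obstruction alpha smooth muscle actin also marks myofibroblasts, the matrix-making cells of the scar. Many of the genes are switched on by serum response factor (SRF), which binds a DNA element named the CArG box, together with the coactivator myocardin or its relatives.

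The genes lie on 8 chromosomes of GRCm38. Acta2 (ENSMUSG00000035783, chromosome 19, 34241090 to 34255336, minus strand) encodes alpha smooth muscle actin, and Actg2 (chromosome 6, 83512905 to 83536265, minus strand) encodes the gamma actin of visceral smooth muscle. Myh11 (chromosome 16, 14194535 to 14291372, minus strand) is the smooth muscle myosin heavy chain, and Myl9 (chromosome 2, 156775420 to 156781658, plus strand) is a regulatory light chain. Tpm2 (chromosome 4, 43514711 to 43523765, minus strand) is a tropomyosin. Cnn1 (chromosome 9, 22099216 to 22109630, plus strand) is calponin 1, and Tagln (chromosome 9, 45929619 to 45936058, minus strand) is transgelin, also called SM22. Lmod1 (chromosome 1, 135324807 to 135368065, plus strand) is leiomodin 1, which starts actin filaments. Des (chromosome 1, 75360329 to 75368579, plus strand) is the intermediate filament protein desmin, and Myocd (chromosome 11, 65176561 to 65269989, minus strand) is myocardin.

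The promoters of 6 of the 10 genes were matched in RefSeq sequences of GRCm38.p6, each from 250 bases before to 50 bases after the start of the gene in RefSeq. This start differs from the one in the coordinates above, and lies 37 bases upstream of it for Acta2, 44 bases downstream for Myl9 and 6 bases downstream for Lmod1. Those of Acta2, Myl9 and Lmod1 are printed 5′ to 3′ in the sense of the gene, since Acta2 was the member that passed the test, Myl9 came next to it in level, and Lmod1 hardly differed between groups. Capitals mark the matches found on either strand: a CArG box, a CArG-like site with a single G or C within the A and T core of the box, or an MCAT element (CATTCC, here on the other strand).
Acta2, chr19:34255324-34255623, minus strand: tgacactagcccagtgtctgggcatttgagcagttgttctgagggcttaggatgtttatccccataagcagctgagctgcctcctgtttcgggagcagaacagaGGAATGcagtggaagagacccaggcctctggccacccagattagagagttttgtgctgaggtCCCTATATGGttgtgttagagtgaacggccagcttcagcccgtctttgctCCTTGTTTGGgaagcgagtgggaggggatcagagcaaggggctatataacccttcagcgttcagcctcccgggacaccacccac
Myl9, chr2:156775214-156775513, plus strand: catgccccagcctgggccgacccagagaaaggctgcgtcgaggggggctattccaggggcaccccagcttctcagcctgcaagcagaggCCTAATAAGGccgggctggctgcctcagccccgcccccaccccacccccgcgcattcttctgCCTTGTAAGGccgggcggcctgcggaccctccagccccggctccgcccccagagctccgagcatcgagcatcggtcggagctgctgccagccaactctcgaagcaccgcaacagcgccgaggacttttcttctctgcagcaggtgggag
Lmod1, chr1:135324563-135324862, plus strand: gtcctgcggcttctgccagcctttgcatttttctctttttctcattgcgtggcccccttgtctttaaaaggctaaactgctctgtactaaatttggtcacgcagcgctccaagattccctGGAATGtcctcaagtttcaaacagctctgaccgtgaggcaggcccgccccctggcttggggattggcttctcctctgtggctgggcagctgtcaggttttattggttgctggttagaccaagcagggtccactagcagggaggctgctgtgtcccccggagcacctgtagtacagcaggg
The Acta2 window held CArG-like sites that began 84 and 34 bases before the RefSeq start, CCCTATATGG and CCTTGTTTGG, and an MCAT element at 146 bases before it. The Myl9 window held a CArG box at 161 bases before the start, CCTAATAAGG, and a CArG-like site at 99 bases before it, CCTTGTAAGG. The Lmod1 window held an MCAT element, and the windows of Cnn1, Des and Tpm2 held none of these letters. Of 32851 promoter windows of the same length, 1.63% held a CArG box, 8.5% a CArG-like site and 14.66% an MCAT element. A match describes the letters of the window and no binding was measured here.

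Total counts ranged from 17917491 to 23847090 per kidney (median 21762343). Cd5l had 0 counts in all CD5L KO kidneys, which allows up to 3, and 3 to 15 in WT kidneys. The kidney markers Lrp2, Slc34a1, Umod, Slc12a3 and Aqp2 had at least 767 counts in every kidney. Kidneys 4 and 3 of CD5L KO mice given rCD5L stood apart, with a mean correlation to the other kidneys of 0.847 and 0.928 against 0.966 to 0.976 for the remaining 17. In kidney 4, 10 proximal tubule markers summed to 50543 CPM, where CPM are counts divided by the TMM-scaled library total and put on the usual scale of 1000000 counts, against 3180 to 9460 in the others. In kidney 3, 12 striated muscle markers summed to 62.0 CPM, against 4.72 to 7.46 in the others. In the rCD5L comparison in CD5L KO mice, the interaction and the correlations, the leading values are also given without them. The labels call the kidneys of a group biological replicates and give no litter, cage or batch.

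Per length, in FPKM (CPM divided by the gene length in kilobases, up to a constant of the library), the actin Acta2 stood first with a median of 137 over the 19 kidneys (98.5 to 265). The light chain Myl9 followed at 100.4 (72.1 to 154), below Acta2 in 19 of 19 kidneys. A gap of 5.57 times separated these from Tpm2 at 18.0, and Des came next at 14.7, below Tpm2 in all 19 kidneys. Actg2 (7.86) and Myh11 (7.64) could not be ordered, since Actg2 was the higher in 15 kidneys and its values ran from 2.89 to 27.6. Des was above Actg2 in 14 kidneys. Cnn1 stood at 4.76 FPKM. Tagln (1.96) and Lmod1 (1.8) were also not separated, with Tagln higher in 12 of 19 kidneys. The coactivator Myocd had the lowest level, 0.159 FPKM, from 5 to 51 counts per kidney. Tagln was counted from only 20 to 154 reads, and 67.9% of its exon bases are shared with other genes, 62.4% with the antisense gene Gm48529 and 5.4% with Pcsk7. The strand setting of the counting is not given in the sources used here, so the level of Tagln is uncertain. Des shares 5.9% of its exon bases with an antisense gene that had 0 counts, and the other 8 members share none.

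**Figure D1:**
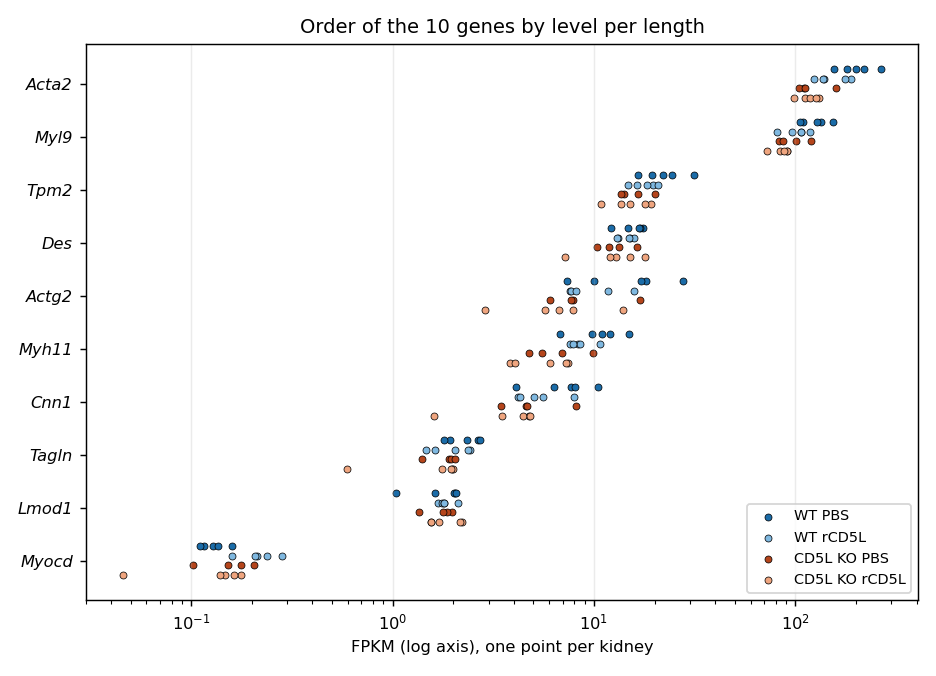
FPKM of the 10 genes (log axis) in each of 19 kidneys, a point for each kidney, in rows by gene from the highest to the lowest median and coloured by group. Acta2 and Myl9 lie above all others, at medians of 137 and 100.4, and Myocd lies lowest at 0.159.

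The first comparison asks what the loss of CD5L did to these genes in the obstructed kidney without treatment. Acta2 fell in CD5L KO kidneys given PBS to 0.599 times the WT level. It was the only member past an adjusted p of 0.05 in edgeR. DESeq2 called 3 members lower, and 1320 of all 17579 genes. Of the 10 members, 9 were lower and Myocd was higher in CD5L KO, and the median log2 fold change of the members was -0.42, against 0.00 for all 17579 genes tested. Among all genes, 5.40% were called lower, so 1 member of 10 called lower is a share near that of the background. With an unadjusted p under 0.05, 4 members were lower, Acta2, Myh11, Tpm2 and Myl9, where 14.0% of all genes were. That count was 7 without CD5L KO kidney 2 or WT kidney 3, and 3 to 6 without any other single kidney. No member had groups without overlap, which 6.84% of all genes had in the direction of lower values in CD5L KO.

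Acta2, the actin, had 434, 478, 341, 574 and 393 CPM in WT kidneys given PBS, and 242, 351, 229 and 247 CPM in CD5L KO kidneys given PBS. CD5L KO kidney 2 was the single one that reached into the WT range, just above the lowest WT kidney. The means were 444 ± 88.7 (SD, n = 5) and 267 ± 56.4 (SD, n = 4) CPM, with a log2 fold change of -0.74 ± 0.155 (SE) and an adjusted p of 0.0128 in edgeR. The call held when any kidney was left out, with log2 fold changes from -0.90 to -0.63 and adjusted p from 0.00627 to 0.0392. It was lost in a fit of all 19 kidneys, which pools their spread, at an adjusted p of 0.0704. The other actin, Actg2, had 34.4, 33.0, 13.95, 52.3 and 19.2 CPM in WT and 15.1, 32.7, 11.7 and 14.7 CPM in CD5L KO kidneys given PBS. These ranges overlapped widely, and the log2 fold change of Actg2 was -0.72 ± 0.370 with an adjusted p of 0.239.

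Myh11, the heavy chain, had 111, 102, 62.7, 138 and 90.8 CPM in WT and 51.6, 93.0, 44.7 and 65.0 CPM in CD5L KO kidneys given PBS. The groups overlapped, with WT kidney 3 below CD5L KO kidneys 2 and 4, and WT kidney 5 below CD5L KO kidney 2. The log2 fold change of Myh11 was -0.67 ± 0.229 with an adjusted p of 0.0823. The light chain Myl9 had 179 ± 27.7 CPM in WT (n = 5) and 140 ± 24.2 CPM in CD5L KO kidneys (n = 4), a log2 fold change of -0.36 ± 0.127 with an adjusted p of 0.0919. Without CD5L KO kidney 2 both passed, at adjusted p of 0.0312 for Myh11 and 0.0423 for Myl9, so that 3 members were called with Acta2. Without WT kidney 3 the members called were also 3, Acta2, Myh11 (adjusted p = 0.0232) and Tpm2 (adjusted p = 0.0269).

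Among the proteins that bind along the actin filament, the tropomyosin Tpm2 had 80.8 ± 19.8 CPM in WT (n = 5) and 57.8 ± 10.6 CPM in CD5L KO kidneys (n = 4), with a log2 fold change of -0.49 ± 0.166 and an adjusted p of 0.0826. DESeq2 called Tpm2 (adjusted p = 0.0244) and Myl9 (adjusted p = 0.0374) beside Acta2, and edgeR without the filter called Tpm2 (adjusted p = 0.0377) and Myh11 (adjusted p = 0.0306) beside it. The calponin gene Cnn1 (-0.48 ± 0.266, adjusted p = 0.274) and Tagln (-0.31 ± 0.172, adjusted p = 0.271) had intervals that reached above 0. Lmod1 had 9.82, 9.77, 5.05, 9.95 and 7.83 CPM in WT and 6.60, 9.61, 9.08 and 8.64 CPM in CD5L KO kidneys given PBS. The group means of Lmod1 were both 8.48 CPM, and the 95% interval of its log2 fold change ran from -0.43 to 0.41. The interval of Lmod1 lies apart from the point estimate of Acta2, but the difference between genes was not tested. Des, the intermediate filament gene, had 71.6 ± 10.1 CPM in WT and 60.2 ± 11.8 CPM in CD5L KO kidneys, with a log2 fold change of -0.25 and an adjusted p of 0.245. Myocd had a log2 fold change of 0.30 with an interval from -0.26 to 0.85 (adjusted p = 0.498).

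**Figure D2:**
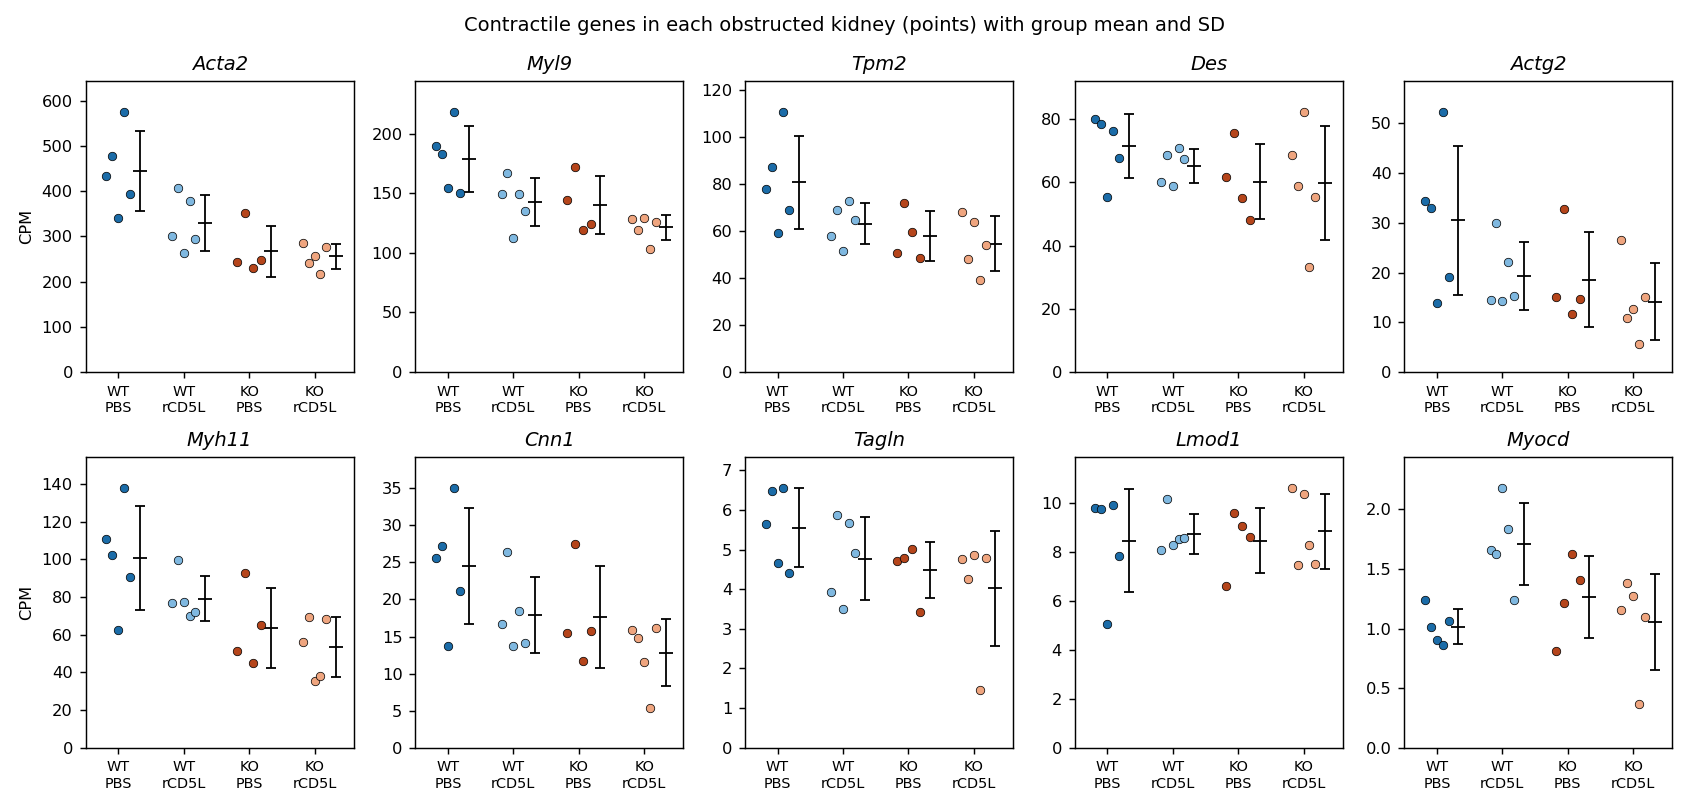
CPM of the 10 genes in each kidney by group (points, y axes from 0), with the group mean and SD as a bar beside them. Acta2 lies lower in CD5L KO than in WT kidneys given PBS except for CD5L KO kidney 2 (351 CPM). The mean of Myocd is highest in WT kidneys given rCD5L (1.24 to 2.18 CPM), whose range overlaps those of the other groups.

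The second comparison asks what rCD5L did in mice that make their own CD5L. No member was called, and none of all 17455 genes was (0.00%, edgeR). With an unadjusted p under 0.05 there were 2797 genes, 16.0% of those tested, and 7.71% of those tested were lower. Of the members, 5 were under that unadjusted p. Acta2, Myl9, Tpm2 and Actg2 were lower with rCD5L, and Myocd was higher. The count was 8 without WT kidney 3 given PBS, 3 without WT kidney 2 or 4 given PBS or 1 or 3 given rCD5L, and 4 to 7 without any other single kidney. DESeq2 called 542 of all genes and no member. The median log2 fold change of the members was -0.33, against 0.00 for all genes, with 8 of 10 lower. It was -0.20 without WT kidney 4 given PBS, and from -0.40 to -0.26 without any other single kidney. This comparison and the first share the 5 WT kidneys given PBS, so their values are set side by side without a measure of likeness.

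Myocd, the coactivator, had 1.24, 1.01, 0.905, 0.860 and 1.07 CPM in WT kidneys given PBS and 1.66, 1.62, 2.18, 1.84 and 1.24 CPM in WT kidneys given rCD5L. The groups touched at 1.24 CPM, where rCD5L kidney 5 lay level with PBS kidney 1. The log2 fold change of Myocd was 0.76 ± 0.223, and its adjusted p of 0.134 missed the threshold. These values rest on 16 to 28 counts per kidney with PBS and 31 to 51 with rCD5L. Acta2 had 301, 408, 264, 378 and 295 CPM with rCD5L in WT mice, a mean of 329 ± 60.9 (n = 5) against 444 ± 88.7 with PBS. The log2 fold change of Acta2 was -0.42 ± 0.135 with an adjusted p of 0.159. Actg2 was at -0.66 (adjusted p = 0.30), Cnn1 at -0.45 (0.332 adjusted), Tpm2 at -0.34 (0.25 adjusted), Myh11 at -0.34 (0.315 adjusted) and Myl9 at -0.31 (0.178 adjusted) on the log2 scale. Tagln, Des and Lmod1 lay between -0.21 and 0.05, all with an adjusted p of at least 0.543.

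The third comparison asks what rCD5L did in mice that lack CD5L. No member was called and no gene of 17467 was (0.00%, edgeR), and 2.87% of all genes had an unadjusted p under 0.05, a level that no member reached. DESeq2 called 10 of all genes and no member. The members' median log2 fold change was -0.17, against 0.02 for all genes, with 9 of 10 lower. The median was -0.02 without rCD5L kidney 4 and 0.02 without PBS kidney 2, and it was 0.00 without rCD5L kidneys 3 and 4. Acta2 had 285, 242, 256, 217 and 277 CPM with rCD5L and 242, 351, 229 and 247 CPM with PBS in CD5L KO mice. Leaving out PBS kidney 2, the values with rCD5L lay around those with PBS. The log2 fold change of Acta2 was -0.05, with an interval from -0.40 to 0.30 and an adjusted p of 0.969. The lowest values were those of Cnn1 (-0.45) and Actg2 (-0.38), and Lmod1 alone was above 0 (0.08), all with an adjusted p of at least 0.897. Without rCD5L kidneys 3 and 4, Cnn1 was at -0.17 and Actg2 at -0.08. Without single kidneys Cnn1 ran from -0.59 to -0.15 and Actg2 from -0.73 to 0.046.

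Kidney 4 of CD5L KO mice given rCD5L held the lowest value of 8 of the 10 members among all 19 kidneys. The others were Lmod1, lowest in WT kidney 3 given PBS, and Myh11, lowest in CD5L KO kidney 3 given rCD5L. In kidney 4, Cnn1 was at 5.42 CPM against 11.6 to 16.2 in the other 4 kidneys of the group, and Tagln was at 1.47 CPM against 4.27 to 4.86. This is the kidney with 50543 CPM of proximal tubule markers, and their part in the low values was not tested. Des was highest of all 19 kidneys in CD5L KO kidney 3 given rCD5L, at 82.2 CPM, the kidney with 62.0 CPM of striated muscle markers. Desmin is also a gene of striated muscle, and the part of such muscle in the value was not tested.

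The response to rCD5L was compared between genotypes with an interaction term over all 19 kidneys. No member and no gene of 18454 passed (0.00%, edgeR and DESeq2), and 6.25% of all genes had an unadjusted p under 0.05. Among the members this held for Myocd alone. The log2 fold change of Myocd with rCD5L was 0.76 in WT and -0.23 in CD5L KO mice, and the interaction was -0.96 ± 0.393 with a p of 0.0244 before and 0.731 after adjustment in edgeR. Without CD5L KO kidneys 3 and 4 given rCD5L the interaction was -0.80. The interaction of Acta2 was 0.38 ± 0.221 with an adjusted p of 0.731, and 0.43 without those kidneys.

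**Figure D3:**
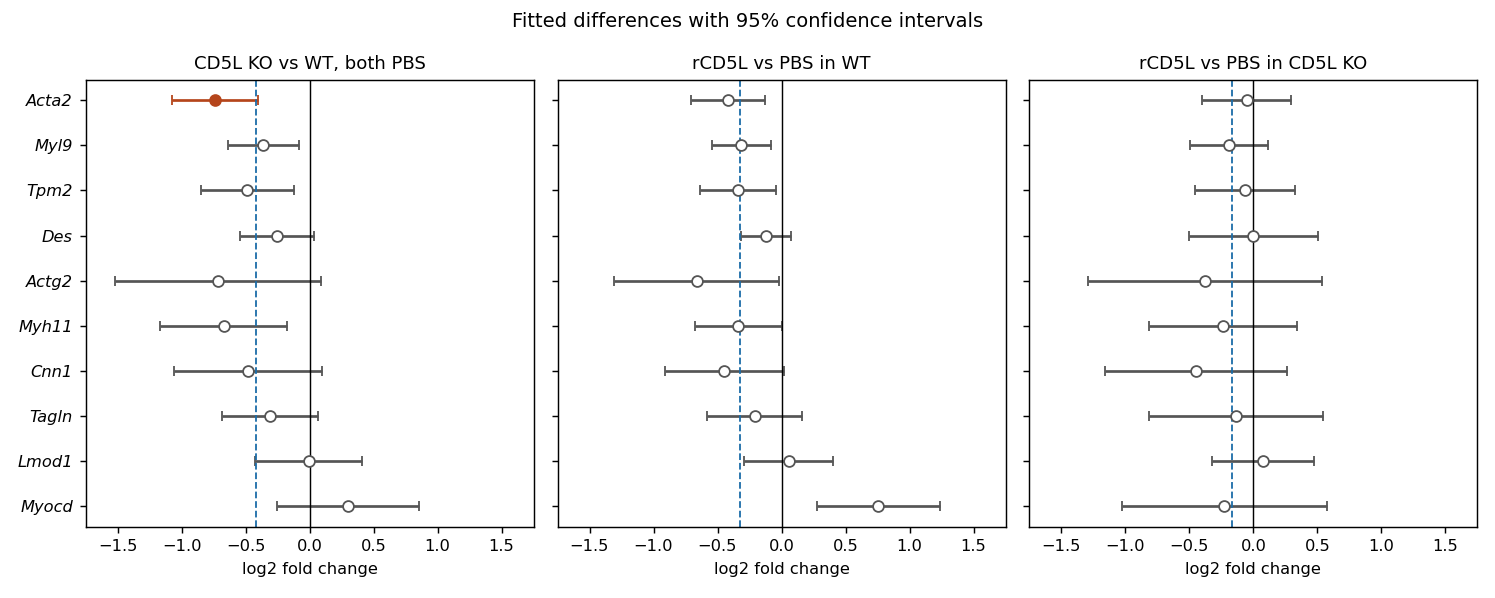
Log2 fold change of each gene (points) with its 95% confidence interval (bars) in 3 comparisons, from edgeR. The filled point is Acta2 in CD5L KO against WT, the single value with an adjusted p under 0.05, and dashed lines mark the members' medians of -0.42, -0.33 and -0.17.

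Of 28 further contractile and cytoskeletal genes, 9 were called lower and 1 was called higher in CD5L KO than in WT kidneys given PBS, with a median log2 fold change of -0.21. Among all genes, 5.40% were called lower and 5.13% higher. Itga8, an integrin of mesangial and smooth muscle cells, fell by 0.71 on the log2 scale (adjusted p = 0.00464), and vinculin, Vcl, which ties actin to adhesions, fell by 0.64 (adjusted p = 0.0047). Their WT kidneys all lay above their CD5L KO kidneys. Filamin A, Flna, fell by 0.53, the caldesmon gene Cald1 by 0.40, and Csrp1, a LIM protein of smooth muscle, by 0.38. Mylk, the kinase that activates the myosin light chain, fell by 0.30 (171.9 ± 6.14 against 210.1 ± 12.6 CPM). Tpm1 fell by 0.28 and the actinin gene Actn1 by 0.26, all with an adjusted p of at most 0.0199 in edgeR. The single gene that rose was Myl6, a myosin light chain also made outside muscle, at 0.22 (adjusted p = 0.024), named here after its value was seen. Without CD5L KO kidney 1, 6 of the 28 were called, and in the fit of all 19 kidneys 1 was. In these genes no call was made with rCD5L in either genotype.

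Of 20 regulators of the smooth muscle programme, 1 was called in CD5L KO against WT, Mrtfb, a coactivator of SRF, which fell by 0.24 on the log2 scale (48.98 ± 2.90 against 57.6 ± 4.04 CPM, adjusted p = 0.0381). A single call among 20 is not above the background, where 5.40% of all genes were called lower and 5.13% higher, and the list held no call without CD5L KO kidney 1 or 3 or WT kidney 1, 2, 4 or 5. Srf itself was at 0.09 and Mrtfa at -0.12, with an adjusted p of 0.47 and 0.30. The median of the list was -0.09. The kinase genes Rock1 and Rock2, which act below RhoA, were at 0.02 and -0.19, also not called. With rCD5L in WT mice no regulator was called, and 7 of 20 had an unadjusted p under 0.05, of which 5 were higher, beside 16.0% of all genes under that p.

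Markers of cells that make these proteins or lie beside them moved in the same comparison. Of 12 pericyte and mural cell markers, 6 were called lower in CD5L KO kidneys given PBS and none higher, with a median log2 fold change of -0.32. Mcam fell by 0.66, Abcc9 by 0.57, Notch3 by 0.46, the PDGF receptor gene Pdgfrb by 0.42, Cspg4 by 0.29 and Heyl by 0.26. Rgs5, also a pericyte gene, was at -0.05 and was not called. Of 14 fibroblast and matrix markers, 7 were called lower and none higher, with a median of -0.43. Col3a1 fell by 0.86, the tenascin gene Tnc by 0.70, Fn1 by 0.62, Col1a1 by 0.61, Col1a2 by 0.54, Pdgfra by 0.50 and Vim by 0.42. Of 8 endothelial markers, 3 were called lower (Cdh5, Pecam1 and Flt1), and of 8 macrophage markers 1 was (Csf1r), beside 5.40% of all genes called lower. The single macrophage call was absent without CD5L KO kidney 3 or 4 or WT kidney 1, 2, 4 or 5. The pericyte list held 2 calls without CD5L KO kidney 1 and 3 without CD5L KO kidney 4, and the fibroblast list held 4 without CD5L KO kidney 3 or 4 or WT kidney 4. In the fit of all 19 kidneys, which called 12 of all genes, 1 pericyte marker was called and no fibroblast, endothelial or macrophage marker. The medians of the endothelial and macrophage lists were -0.28 and -0.11. The summed level of the pericyte list ran from 705 to 841 CPM in WT and from 578 to 709 CPM in CD5L KO kidneys given PBS, and that of the fibroblast list from 5561 to 8472 and from 4039 to 5433 CPM. The part of these cell types in the lower Acta2 was not tested.

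The 10 urothelium and renal pelvis markers went the other way, since all 10 were higher in CD5L KO kidneys given PBS (median log2 fold change 0.74), although none was called and the smallest adjusted p was 0.0793. Without WT kidney 3 the median was 0.48 and 2 of the 10 were called. Their sum ran from 52.8 to 301 CPM in WT and from 331 to 512 CPM in CD5L KO kidneys given PBS. The pelvic wall holds smooth muscle, and the part of the pelvis in the values of the members was not tested. Proximal tubule markers had a median of -0.06 and no call among 10. With rCD5L the medians of the pericyte, fibroblast, urothelium and proximal tubule lists were -0.13, -0.02, -0.15 and -0.38 in WT mice and 0.11, -0.19, -0.51 and 1.29 in CD5L KO mice, with no call in either. With an unadjusted p under 0.05, 5 of 8 endothelial markers were lower with rCD5L in WT mice (median -0.17). At that p, 5 of 10 proximal tubule, 4 of 12 pericyte and 0 of 14 fibroblast markers were lower too, beside 7.71% of all genes. Of 7 tested epididymis markers, 4 were higher at that p with rCD5L in WT mice (median 0.70) and 5 in CD5L KO mice (median 1.42). Of all genes, 16.0% were under that p in either direction in WT and 2.87% in CD5L KO mice. The sum of the epididymis markers ran from 17.6 to 43.0 CPM with rCD5L against 13.7 to 27.9 CPM with PBS in WT mice. In CD5L KO mice it ran from 26.7 to 65.3 CPM against 10.2 to 23.5 CPM. The part of epididymis RNA in the values of the members was not tested. Without rCD5L kidneys 3 and 4 the medians of the pericyte, fibroblast, urothelium and proximal tubule lists in CD5L KO mice were 0.07, 0.08, -0.29 and -0.18, that of the epididymis list was 1.03, and without kidney 4 alone that of the proximal tubule list was 0.07.

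**Figure D4:**
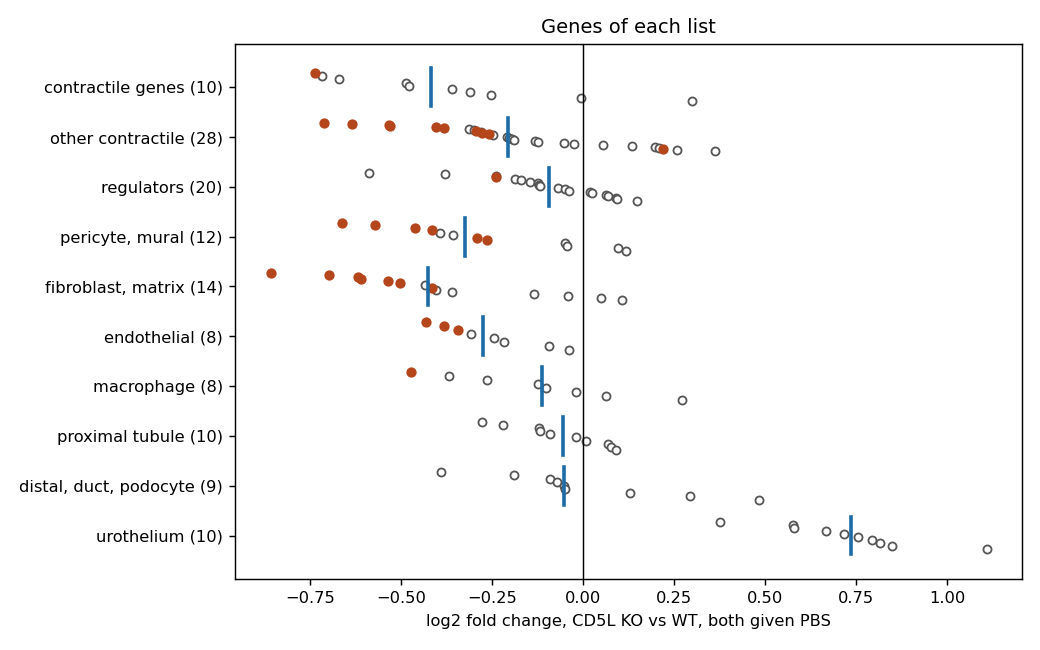
Log2 fold change of each gene of 10 lists in CD5L KO against WT kidneys given PBS (points, filled where the adjusted p in edgeR was under 0.05), with the median of each list as a vertical bar. Filled points lie left of 0 in the contractile, pericyte and fibroblast lists except for Myl6, and the urothelium list lies right of 0 with a median of 0.74.

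Within the groups, the levels of the members were correlated from kidney to kidney. After the group means of log2 CPM were removed, the median Pearson r of the 45 pairs over 19 kidneys was 0.661, from 0.046 to 0.915, and 45 of 45 were above 0. The points share a library and its scaling, so these values are a description. Markers of other cell types moved with the members as well, as given further below. The closest pairs were Cnn1 with Actg2 (0.915), Acta2 with Actg2 (0.908) and Acta2 with Myl9 (0.892). Myocd had the lowest median of the members, 0.30 over its 9 pairs, down to 0.117 with Acta2 and 0.046 with Myl9. Its pair with Tagln reached 0.589, above some pairs without Myocd, such as Tagln with Lmod1 (0.326). Among the 28 pairs without Lmod1 and Myocd the median was 0.747. Without CD5L KO kidneys 3 and 4 given rCD5L, the median over the 45 pairs was 0.694.

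Acta2 was set against each other member in 9 relations, permuting kidneys within groups. The permutation p is against no relation at all between 2 genes. Genes of 1 library share its scaling, and markers of other cell types also moved with the members, so a small p does not single out these relations. With Actg2, Spearman's rho was 0.933, with a permutation p of 1e-05 for both coefficients, the smallest that 100000 permutations can give, and an adjusted p of 6e-05 for r. With Myl9 rho was 0.854, with Cnn1 r was 0.863 and rho 0.937, and with Tpm2 r was 0.852 and rho 0.833, all with an adjusted permutation p of at most 0.00018. Myh11 (r = 0.705, rho = 0.672), Lmod1 (0.623 and 0.600), Des (0.608 and 0.777) and Tagln (0.591 and 0.711) followed, with an adjusted permutation p of at most 0.0119. With Myocd, r was 0.117 (adjusted permutation p = 0.59) and rho 0.035 (adjusted permutation p = 0.889). Without WT kidneys 2 and 4 given PBS, which lay farthest from the median of Acta2, r ran from 0.530 for Lmod1 to 0.885 for Actg2 over 17 kidneys, and it was 0.225 for Myocd. Without CD5L KO kidneys 3 and 4 given rCD5L, r ran from 0.658 for Lmod1 to 0.940 for Cnn1, and for Myocd it was -0.164.

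**Figure D5:**
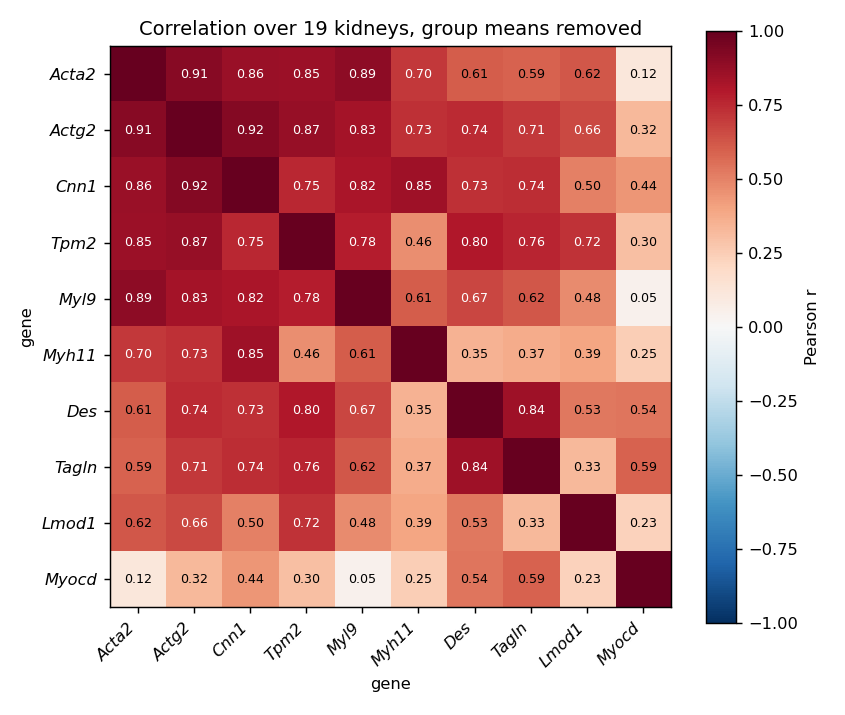
Pearson r between each pair of the 10 genes over 19 kidneys, on log2 CPM with group means removed, as colour and number. Values are highest for Cnn1 with Actg2 (0.915) and Acta2 with Actg2 (0.908), and lowest for Myocd with Myl9 (0.046) and with Acta2 (0.117).

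The spread within a group also differed by gene. Actg2 varied most, with a coefficient of variation of 35.6% to 54.9% over the 4 groups, and Cnn1 came next in 3 of them, with 28.7% to 39.0%. In CD5L KO mice given rCD5L, Myocd (37.9%) and Tagln (36.0%) varied more than Cnn1 (35.2%). Myl9 varied from 8.8% to 17.3% and Acta2 from 10.8% to 21.1%. The mean z-score of the members was highest in WT kidney 4 given PBS, at 1.44, and lowest in CD5L KO kidney 4 given rCD5L, at -2.13.

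The members, which make up their own mean z-score, were left out of the search for the genes most like it. Among 14323 genes whose log2 CPM averaged 1 or more, the most alike of the others over 19 kidneys, by Pearson r with group means removed, were Prickle1 (0.922), Galnt6 (0.903), Lama4 (0.895), Pdlim1 (0.893), Gjc1 (0.886), Mcam (0.875), P4ha3 (0.867), Fibin (0.865), Adam19 (0.857) and Col5a2 (0.854). Lama4 encodes a laminin chain of vessel walls, Mcam is a mural and endothelial surface protein, Gjc1 is a connexin, Pdlim1 binds actinin and Col5a2 is a fibrillar collagen. They were taken as the highest of the genes compared, so their values are a description. Without CD5L KO kidneys 3 and 4 given rCD5L, r of these genes was 0.772 to 0.881 and 4 of the 10 stayed among the 10 highest, with Prickle1 still first. In CD5L KO against WT kidneys given PBS, Lama4 (-0.53), Mcam (-0.66), Fibin (-0.58) and Col5a2 (-0.77) were called lower in edgeR. The other 6 were not called, with log2 fold changes from -0.53 to -0.23. Gene lists were set against the same score over all 19 kidneys. The median r was 0.716 for 14 fibroblast markers (14 above 0), 0.654 for 8 macrophage markers (8) and 0.571 for 11 pericyte markers (10). It was 0.153 for 8 endothelial markers (6), -0.619 for 10 proximal tubule markers (0) and -0.650 for 9 distal nephron, collecting duct and podocyte markers (1). Movement with the score was thus not particular to contractile genes.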

How the data were processed

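Whole-kidney RNA of 19 mice was sequenced from random-primed, paired-end libraries. Per the labels and the study's methods, Trimmomatic trimmed the reads, HISAT2 aligned them to GRCm38 and featureCounts gave a count for each gene, and the authors tested genes with DESeq2. Versions, strand setting and the treatment of reads that match several places are not given in the sources used here. The deposited counts are whole reads per gene without normalization. The deposited FPKM values are the same counts divided by gene length and by a constant for each kidney. Of 54532 genes, 33651 had a count.

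The quasi-likelihood test of edgeR 4.0.16 was run on the counts in R 4.3.3, after filterByExpr (minimum count 10) and TMM scaling, with the 2 groups compared in a fit and all 4 in the interaction. Benjamini-Hochberg adjustment ran over all genes tested, with a threshold of 0.05. CPM used TMM factors over all kidneys, and correlations used log2 CPM with a prior count of 2. Tried in turn were RLE factors, DESeq2 1.42.0, no filter, the replicate number as a block, all 19 kidneys in 1 fit, a prior count of 0.5 and leaving out each kidney. A gene length offset (lowess span 0.3), leaving out 2 kidneys that stand apart and the permutation tests of correlations were added after seeing the data. The members and the gene lists were chosen with earlier results of these data known. Named were all members, at most 8 called genes of a list by smallest p, and the 10 genes most alike. No pair of kidneys within a group (36 pairs) agreed within sampling noise (lowest chi-square 6.63 for each degree of freedom), so none was merged. Exon overlaps were taken from GENCODE M21 and promoters from RefSeq GRCm38.p6. The limit of 3 counts for a count of 0 covers counting error only. One kidney marker is not reported here. The fits were tested on simulated data.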

Additional observations from a re-analysis of the deposited data

Results flagged for a closer look

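Among the 40 combinations of a member and a group, 6 held a kidney whose CPM lay far from the others by Dixon's test, which chance gives in about 1 of 20. They fell on 3 kidneys, each in a pair of members. In CD5L KO mice given PBS, kidney 2 was highest for Acta2 at 351 CPM, where the next was 247, and for Actg2 at 32.7 CPM, where the next was 15.1. In CD5L KO mice given rCD5L, kidney 4 was lowest for Tagln at 1.47 CPM, where the next was 4.27, and for Myocd at 0.366 CPM, where the next was 1.10. In WT mice given rCD5L, kidney 2 was highest for Myh11 at 99.4 CPM, where the next was 77.4, and for Lmod1 at 10.2 CPM, where the next was 8.58.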

How the results depend on the processing

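In CD5L KO against WT kidneys given PBS, 3 members were called with DESeq2, 3 with no filter, 3 with the replicate number as a block, 2 with the gene length offset and 0 with all 19 kidneys in 1 fit, against 1 as reported, and leaving out single kidneys gave 1 to 3. The members called were all lower. All genes called lower numbered 1320 with DESeq2, 1092 with the block and 623 with the length offset of 17579, against 949 as reported. With no filter they numbered 786 of 31595. In either direction, all genes called numbered 12 with all 19 kidneys in 1 fit and 1015 to 2062 without single kidneys, against 1850. The labels give no source for a pairing by replicate number, and the data leave it unsettled, since same-numbered kidneys of the 2 groups correlated at 0.04 to 0.46 in their deviations (2 of 4 pairs over 0.1), at 0.07 to 0.45 with rCD5L in CD5L KO mice (3 of 4) and at -0.15 to 0.00 in WT mice (0 of 5). In CD5L KO against WT, and with rCD5L in CD5L KO mice, 2 of 4 kidneys correlated best with their own number. The kidneys were not treated as paired. The block called 2132 of all genes, moved Acta2 to -0.77 (adjusted p = 0.00502) and called Myh11 and Myl9 too, and it called no member with rCD5L or in the interaction. All genes called with rCD5L in CD5L KO mice numbered 10 with DESeq2, and in WT mice 542 with DESeq2, 137 with no filter and 0 to 39 without single kidneys (39 without PBS kidney 1), against 0.

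Some differences that were not called changed sign under some settings. Most were small, but they included Actg2 with rCD5L in CD5L KO mice, which was among the lowest values there. In CD5L KO against WT, Lmod1 (-0.01) was 0.00068 with all 19 kidneys, 0.0019 with the length offset and -0.15 to 0.096 without single kidneys, and with rCD5L in WT mice it was -0.083 to 0.12. With rCD5L in CD5L KO mice, leaving out kidneys 3 and 4 gave 0.011 for Acta2, 0.044 for Tagln, 0.028 for Myh11 and 0.023 for Des. There, Des (-0.0024) was 0.0071 with DESeq2, 0.0072 with RLE factors, 0.0089 with all 19 kidneys and 0.0016 with the length offset. Leaving out single kidneys in the same comparison gave -0.11 to 0.11 for Acta2, -0.25 to 0.066 for Tagln, -0.37 to 0.0031 for Myh11, -0.14 to 0.15 for Des, -0.026 to 0.14 for Lmod1, -0.73 to 0.046 for Actg2 and -0.16 to 0.054 for Tpm2. The cause of these changes was not tested. Of 520 values of single members under the alternatives (all 10 in the 3 comparisons, Acta2 and Myocd in the interaction), 481 kept direction and call, 11 gained the call, 1 lost it and 27 changed sign. In the interaction, Tagln, Myh11, Cnn1, Des, Lmod1 and Actg2, which are not in that count, also changed sign under some alternative. The median r of pairs ran from 0.611 to 0.697 without single kidneys. With RLE factors the median level of Acta2 was 292 CPM against 295. Counts of Myocd (5 to 51) and Tagln (20 to 154) limit what can be said of them.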

Other observations

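Renin cells are mural cells that share a lineage with vascular smooth muscle. The renin gene Ren1 had 434 ± 379 CPM in WT kidneys given PBS (n = 5), where it ran from 160 to 1072, and 149 ± 35.9 CPM in CD5L KO kidneys given PBS (n = 4). Its log2 fold change in CD5L KO against WT was -1.55 with an adjusted p of 0.0624 in edgeR, and with rCD5L in WT mice it was -1.64 with an adjusted p of 0.115. Both values rest in large part on WT kidney 2 given PBS, since without it they were -0.90 (adjusted p = 0.11) and -0.99 (adjusted p = 0.152). The first passed the threshold without WT kidney 3 (adjusted p = 0.0314) or 5 (adjusted p = 0.0397). Akr1b7, the other renin cell marker, was at -0.60 and -0.69, not called in either. Of the remaining lists in CD5L KO against WT kidneys given PBS, 6 adipocyte markers were all higher with 1 called, Fabp4 (0.49, adjusted p = 0.0338), and a median of 0.69. Of these 5 were called without WT kidney 1, where the median was 1.10, and none without CD5L KO kidney 1, 2 or 3 or WT kidney 2, 3, 4 or 5. The 9 distal nephron, collecting duct and podocyte markers had a median of -0.05, 4 tested striated muscle markers of -0.31 and 6 tested epididymis markers of -0.30, with no call. The striated muscle median was 0.02 without CD5L KO kidney 3, and that of the epididymis list was -0.12 without CD5L KO kidney 1 and -0.54 without kidney 3. With rCD5L, the medians of the adipocyte, striated muscle, distal nephron and macrophage lists were -0.24, 0.02, 0.04 and 0.06 in WT and -0.11, 1.08, 0.37 and -0.08 in CD5L KO mice, with no call. Without rCD5L kidneys 3 and 4 those in CD5L KO mice were -0.37, -0.27, -0.04 and 0.10.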
